A study of Homo sapiens with 12 samples.

Results

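The proteasome subunits analysed here were the 34 genes PSMA1 to PSMA7, PSMB1 to PSMB7, PSMC1 to PSMC6 and PSMD1 to PSMD14, taken from the expression tables by gene symbol. They were 34 of 78932 genes in the table for kava and vehicle and 34 of 35697 genes in the table for the siRNA libraries, and the rule uses no measured value. The RNA came from BEAS-2B, an immortalised human bronchial epithelial cell line, in 12 libraries that formed 4 groups of 3. The groups were cells given kava (25 µg/ml) with chromate, cells given vehicle (0.05% DMSO) with chromate, and cells of the vehicle kind 48 h after transfection with 100 nM SNRPA1 siRNA or 100 nM control siRNA. All 12 libraries came from cells held for 20 weeks in 0.25 µM K2Cr2O7, a hexavalent chromium salt, so no library here was free of chromium. Kava is a preparation from the roots of Piper methysticum, and SNRPA1 encodes a component of the U2 snRNP, the splicing particle that recognises the branch site of introns. One cell line was used, and the labels do not say whether the replicates were separate cultures, so p-values measure only the spread between these libraries, which may be technical.

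The proteasome is the protease that degrades most short-lived and damaged proteins that carry ubiquitin chains. Its core particle (20S) stacks rings of alpha subunits (PSMA), which form the gate, on rings of beta subunits (PSMB), of which PSMB5, PSMB6 and PSMB7 carry the active sites. Its regulatory particle (19S) holds a ring of ATPases (PSMC), which unfold the substrate, and non-ATPase subunits (PSMD), which bind and remove ubiquitin or act as scaffolds. PSMD5, PSMD9 and PSMD10 help to assemble the ATPase ring and are absent from the finished particle. When proteasome activity drops, the transcription factor NFE2L1 (also called NRF1) is known to raise the subunit genes together, as a dimer with small MAF proteins on antioxidant response elements in their promoters.

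The keratins KRT8 and KRT18 were at 395 TPM or more in each of the 6 libraries of the kava table, whereas the basal and junctional markers KRT5, KRT14, TP63 and CDH1 were each at 0.4805 TPM or less, so those defining markers of airway epithelium were near 0 in this line. The summed level of 10 epithelial markers was 1310 to 1370 TPM in kava libraries and 1250 to 1300 TPM in vehicle libraries, but its members moved apart. KRT7 was higher with kava (422, 412 and 385 TPM in kava libraries, against 192.5, 194 and 188.5 TPM in vehicle libraries; log2 fold change 1.08, adjusted p = 7.16e-06, limma). KRT19 was lower (0.708, 0.734 and 0.672 TPM in kava libraries, against 24.2, 24.2 and 22.2 TPM in vehicle libraries; log2 fold change -3.85, adjusted p = 6.83e-07, limma), as were KRT17 (-0.68), KRT8 (-0.21) and KRT18 (-0.11). The 5 blood markers summed to 31.6 to 34.4 TPM in kava libraries against 19.4 to 22.2 TPM in vehicle libraries. Most of the blood sum was CD68 (25.1, 24.7 and 26.7 TPM in kava libraries, against 13.8, 12.5 and 13.9 TPM in vehicle libraries), and PTPRC, CD3E and HBB were near or at 0. Fibroblast markers (8 genes, led by THY1) summed to 502 to 529 TPM in kava libraries and 479 to 513 TPM in vehicle libraries. Among them COL1A2 was at 8.97, 8.32 and 8.32 TPM in kava libraries, against 0.0834, 0.1625 and 0.0558 TPM in vehicle libraries (log2 fold change 3.12, adjusted p = 2.73e-06, limma), and COL1A1 was called lower (-0.14). The 4 endothelial markers summed to 0.364 to 0.429 TPM in kava libraries and 1.22 to 1.51 TPM in vehicle libraries, and 4 markers of differentiated airway epithelium were near 0. The nuclear RNAs MALAT1 and NEAT1 together reached 571 to 857 TPM in kava libraries and 421 to 486 TPM in vehicle libraries, and the part of these differences in the results below was not tested. In the siRNA table, whose libraries held 55003534 to 65385258 counts, control siRNA replicate 1 stood apart: its median absolute log2 difference was 0.317 to replicate 2 and 0.267 to replicate 3, against 0.0939 between those 2 libraries and 0.0942 to 0.141 among the SNRPA1 siRNA libraries.

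All 34 subunits passed the filter on low values in both tables. Their levels spanned 36.8 to 718 TPM in kava libraries (median 216 TPM, group means) and 39.0 to 619.7 TPM in vehicle libraries (median 217 TPM). The alpha subunit PSMA7 was the highest in vehicle libraries, and PSMD5 was the lowest in both groups; kava libraries had PSMD2 at the top. The TPM unit scales for transcript length, so levels can be set against each other between genes within that table.

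In cells given kava, 13 of the 34 subunits were higher and 4 were lower than with vehicle. These calls were made at an adjusted p under 0.05 in limma, and the other 17 subunits did not pass. Of all 13866 genes tested, 16.3% were called higher and 15.6% lower, so the subunits' shares were 38.2% higher and 11.8% lower. Among the 4220 genes at least as abundant as the lowest subunit, 19.5% were called higher and 20.2% lower. The median log2 fold change of the subunits was 0.11, against -0.014 for all genes tested. In 15 subunits every kava library lay above every vehicle library and in 5 every one lay below, where 22.6% and 24.6% of all genes did so. The changes were small: the 13 called higher spanned log2 fold changes of 0.11 to 0.83 and the 4 called lower spanned -0.38 to -0.15. By part of the particle, 8 of 14 non-ATPase subunits were called higher and 0 lower, 2 of 7 beta subunits higher and 0 lower, 1 of 7 alpha subunits higher and 2 lower, and 2 of 6 ATPases higher and 2 lower. At an unadjusted p under 0.05 in limma, the count of lower genes was also 0 for the beta subunits and for the non-ATPases.

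**Figure D1:**
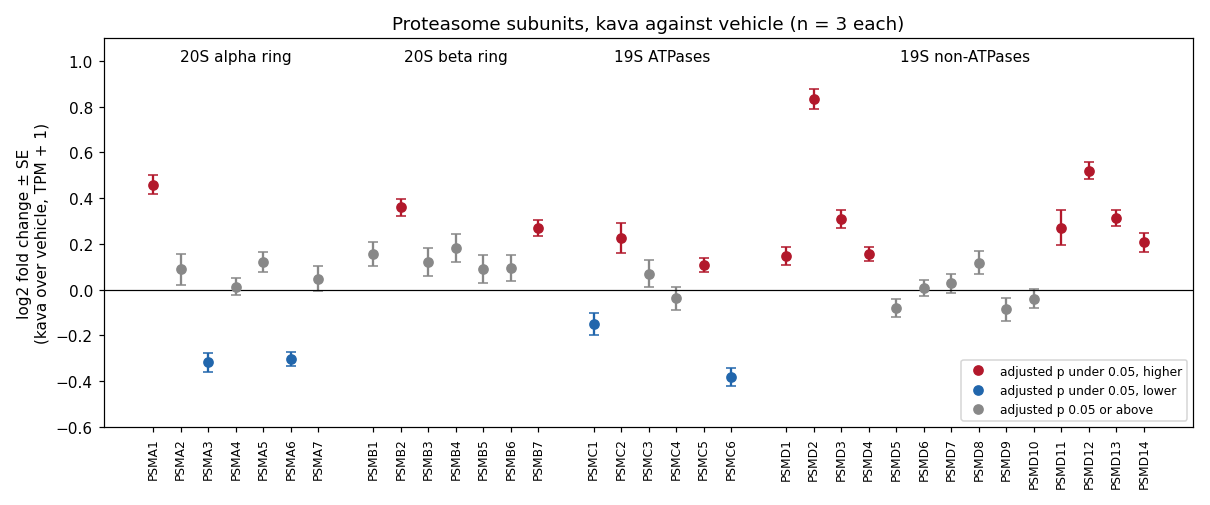
Log2 fold change of each of the 34 subunits, kava over vehicle, on log2(TPM + 1), with its SE, ordered by part of the particle. PSMD2 stands highest at 0.83, and the 4 subunits called lower are 2 alpha subunits and 2 ATPases.

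The non-ATPase subunits of the 19S particle held the 2 largest rises. PSMD2, the scaffold at the side of the ATPase ring where shuttle receptors and the deubiquitinase USP14 bind, had 745, 724 and 684 TPM in kava libraries, against 413, 408 and 386.5 TPM in vehicle libraries. The groups were far apart, with the lowest kava library well above the highest vehicle library, a 1.78-fold difference of means (log2 fold change 0.83 ± 0.044 (SE), adjusted p = 2.12e-05, limma). PSMD12, a scaffold of the lid, had 166, 167 and 172.5 TPM in kava libraries, against 116, 116 and 121 TPM in vehicle libraries, and again the groups did not overlap (log2 fold change 0.52 ± 0.036 (SE), adjusted p = 6.87e-05, limma). The lid scaffolds PSMD13 and PSMD3 followed, at about the same size as each other. PSMD13 had 212, 206 and 207 TPM in kava libraries, against 168, 172 and 163 TPM in vehicle libraries (log2 fold change 0.31 ± 0.035 (SE), adjusted p = 0.000615, limma). PSMD3 had 188, 183 and 176 TPM in kava libraries, against 152, 146 and 143 TPM in vehicle libraries (log2 fold change 0.31 ± 0.04 (SE), adjusted p = 0.00121, limma). In both of these lid genes the 3 kava libraries were the 3 highest. PSMD14, the metalloprotease that cuts ubiquitin chains off the substrate, had 192, 182 and 176 TPM in kava libraries, against 156, 161 and 159 TPM in vehicle libraries (log2 fold change 0.21 ± 0.041 (SE), adjusted p = 0.00755, limma). PSMD4, a ubiquitin receptor, had 228, 223 and 221 TPM in kava libraries, against 199, 200.3 and 203 TPM in vehicle libraries (log2 fold change 0.16 ± 0.032 (SE), adjusted p = 0.00877, limma). In both ubiquitin-handling genes every kava library lay above every vehicle library, by a smaller step than in PSMD2, PSMD12, PSMD13 and PSMD3. The assembly factors PSMD5, PSMD9 and PSMD10 did not pass the test, with log2 fold changes of -0.081, -0.086 and -0.04.

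Promoter windows from RefSeq (GRCh38.p14), running from 250 bases before to 50 bases after the annotated start, were matched by symbol for 29 of the 34 subunits; PSMA7, PSMB1, PSMB6, PSMB7 and PSMD4 were not matched. Each window was searched on both strands for TGACNNNGC, a core of the antioxidant response element, and for CCAAT, the box bound by NF-Y. The motifs were searched separately, so that matches may overlap at their ends. The first motif was in 9 of 29 subunits (31.0%), against 16.1% of 27305 genes. CCAAT was in 16 of 29 (55.2%), against 39.7% of genes. TGACNNNGC was present in 4 of 11 matched subunits called higher with kava (PSMC5, PSMD1, PSMD3 and PSMD12), in 0 of 4 called lower and in 5 of 14 not called. Printed here are the subunits with the 2 largest rises, another that rose and whose window holds the motif on both strands, and the one with the largest fall; capitals mark TGACNNNGC or its reverse complement.
PSMD2 (chr3:184298991-184299290, plus strand): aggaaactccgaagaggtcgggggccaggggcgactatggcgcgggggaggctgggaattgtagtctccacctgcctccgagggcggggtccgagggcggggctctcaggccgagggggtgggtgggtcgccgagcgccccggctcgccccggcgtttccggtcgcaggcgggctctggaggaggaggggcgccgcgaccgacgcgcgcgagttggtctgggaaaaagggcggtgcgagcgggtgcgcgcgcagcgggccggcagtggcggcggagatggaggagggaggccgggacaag
PSMD12 (chr17:67366528-67366827, minus strand): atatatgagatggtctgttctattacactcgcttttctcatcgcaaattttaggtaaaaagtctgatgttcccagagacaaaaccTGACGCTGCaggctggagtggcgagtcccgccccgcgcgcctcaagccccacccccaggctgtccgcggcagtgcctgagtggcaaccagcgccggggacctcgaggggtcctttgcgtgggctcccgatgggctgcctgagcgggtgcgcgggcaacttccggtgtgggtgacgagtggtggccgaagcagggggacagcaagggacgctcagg
PSMD3 (chr17:39980557-39980856, plus strand): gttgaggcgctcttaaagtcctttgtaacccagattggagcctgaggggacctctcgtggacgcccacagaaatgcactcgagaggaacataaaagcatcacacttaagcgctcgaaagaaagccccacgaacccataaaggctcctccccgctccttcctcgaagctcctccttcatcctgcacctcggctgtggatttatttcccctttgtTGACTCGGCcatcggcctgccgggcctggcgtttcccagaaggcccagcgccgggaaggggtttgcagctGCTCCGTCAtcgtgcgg
PSMC6 (chr14:52706950-52707249, plus strand): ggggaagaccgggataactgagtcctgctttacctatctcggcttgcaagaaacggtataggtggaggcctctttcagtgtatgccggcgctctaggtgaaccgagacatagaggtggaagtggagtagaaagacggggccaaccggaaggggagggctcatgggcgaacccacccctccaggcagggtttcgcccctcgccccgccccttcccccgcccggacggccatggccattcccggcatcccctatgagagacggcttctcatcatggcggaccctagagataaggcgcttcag
The PSMD12 match begins 165 bases before the start, and the PSMD3 matches lie 37 bases before and 33 bases after it. The PSMD2 and PSMC6 windows hold no match. A match is a description of letters, and its absence says only that these letters are not in this window.

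The beta ring held the catalytic sites. All 7 beta subunits had positive log2 fold changes (0.090 to 0.36), but only PSMB2 and PSMB7 passed the test. PSMB7, the trypsin-like site, had 379, 388 and 373 TPM in kava libraries, against 307, 315 and 323 TPM in vehicle libraries and separated the groups completely (log2 fold change 0.27 ± 0.035 (SE), adjusted p = 0.00119, limma). PSMB5, the chymotrypsin-like site and main target of proteasome inhibitor drugs, had 361, 347 and 308 TPM in kava libraries, against 316, 329 and 308 TPM in vehicle libraries (log2 fold change 0.09 ± 0.061 (SE), adjusted p = 0.302, limma). PSMB6, the caspase-like site, had 262, 265 and 237 TPM in kava libraries, against 233, 251 and 230.3 TPM in vehicle libraries (log2 fold change 0.10 ± 0.056 (SE), adjusted p = 0.235, limma). For PSMB5 and PSMB6 kava replicate 3 fell within the range of the vehicle libraries, so these 2 sites were not separated. PSMB2, a subunit without an active site, had 156, 153 and 152 TPM in kava libraries, against 117, 117 and 124 TPM in vehicle libraries and gave the largest change of the ring (log2 fold change 0.36 ± 0.038 (SE), adjusted p = 0.000456, limma).

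**Figure D2:**
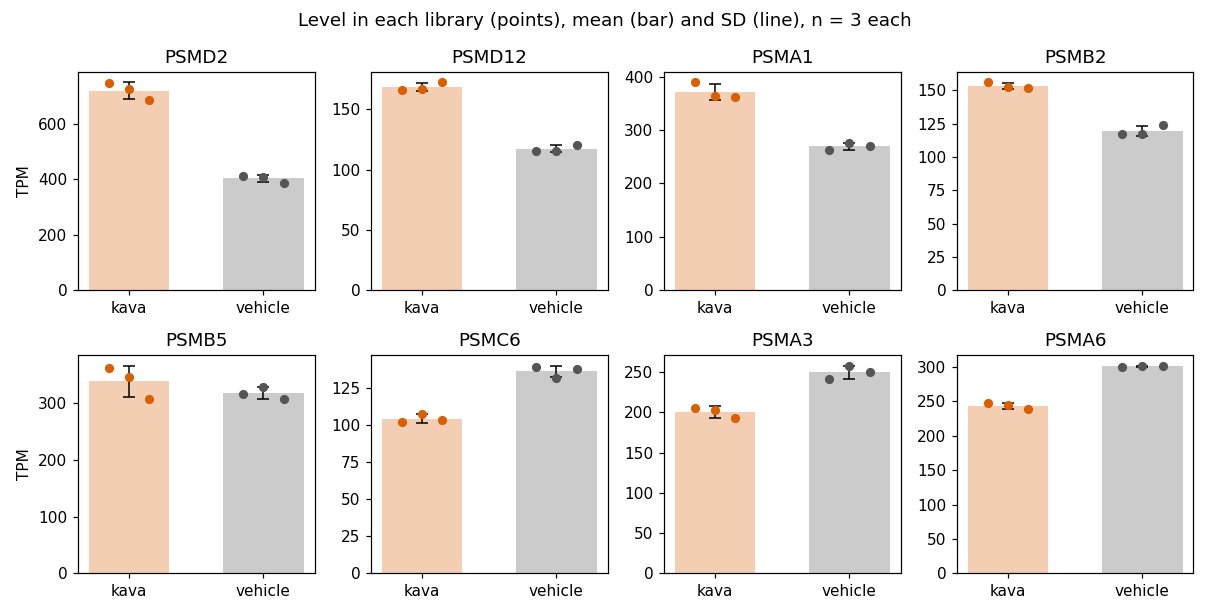
TPM in each library (points) with the group mean (bar) and SD (line) for 8 subunits, kava left of vehicle, n = 3 each. PSMD2, PSMD12, PSMA1 and PSMB2 lie higher with kava, PSMB5 overlaps, and PSMC6, PSMA3 and PSMA6 lie lower.

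Alpha subunits and ATPases went both ways. PSMA1 had 389.7, 363 and 362 TPM in kava libraries, against 263, 277 and 270.2 TPM in vehicle libraries (log2 fold change 0.46 ± 0.041 (SE), adjusted p = 0.000231, limma). PSMA3 had 206, 203 and 193 TPM in kava libraries, against 242, 258 and 251 TPM in vehicle libraries (log2 fold change -0.32 ± 0.041 (SE), adjusted p = 0.00123, limma). PSMA6 had 247, 245 and 239 TPM in kava libraries, against 299, 301 and 302 TPM in vehicle libraries (log2 fold change -0.30 ± 0.031 (SE), adjusted p = 0.000406, limma). Within one ring, then, PSMA1 was 1.38-fold as high with kava and the 2 others were at 0.802 and 0.81 of vehicle, without overlap between groups in any of the 3. PSMC6, an ATPase of the ring, had 102, 107.5 and 103.5 TPM in kava libraries, against 139, 131.5 and 138 TPM in vehicle libraries, all 3 kava libraries below all 3 vehicle libraries (log2 fold change -0.38 ± 0.039 (SE), adjusted p = 0.000435, limma). The ATPase PSMC1 was also called lower (-0.15, adjusted p = 0.0496, limma), whereas PSMC2 (0.23, adjusted p = 0.0357, limma) and PSMC5 (0.11, adjusted p = 0.0323, limma) were called higher. The remaining 2 calls were PSMD1 (0.15, adjusted p = 0.0228, limma) and PSMD11 (0.27, adjusted p = 0.0318, limma), scaffolds of base and lid.

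Of the 17 calls, 12 were kept under each of 13 alternative settings, and the other 5, PSMC1, PSMC2, PSMC5, PSMD1 and PSMD11, each lost their call when any of several single libraries was left out. Without vehicle replicate 1 the adjusted p of these 5 in limma was 0.104, 0.113, 0.0837, 0.083 and 0.0819, in that order, and without kava replicate 2 it was 0.138, 0.113, 0.117, 0.0797 and 0.0968. Vehicle replicate 2 gave 0.131, 0.111, 0.113, 0.0631 and 0.102 when left out. Leaving out vehicle replicate 3 ended the calls of PSMC1 (0.126), PSMC5 (0.0855), PSMD1 (0.0579) and PSMD11 (0.0535). Kava replicate 1 did so for PSMC1 (0.0902) and PSMC5 (0.0503), and kava replicate 3 for PSMC2 (0.0812) and PSMD11 (0.0638). Without kava replicate 3, PSMB1 (0.21, adjusted p = 0.01), PSMB3 (0.18, adjusted p = 0.0299), PSMB4 (0.24, adjusted p = 0.00811), PSMB5 (0.16, adjusted p = 0.0274), PSMB6 (0.15, adjusted p = 0.0471) and PSMD8 (0.17, adjusted p = 0.0106) were also called higher in limma, which brought all 7 beta subunits past the threshold. Other settings ended calls of the same 5: eBayes without a trend all of them (0.056 to 0.0977), and no filter on low TPM those of PSMC1 (0.124), PSMC2 (0.0984), PSMC5 (0.0611) and PSMD11 (0.0941). PSMC1 was also lost with TMM scaling (0.0807) and with median centring (0.0748).

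The 4 subunits called lower with kava, PSMA3, PSMA6, PSMC1 and PSMC6, all lie on chromosome 14. The median log2 fold change of the 453 genes tested on that chromosome was -0.28. Around PSMC6 the 40 nearest tested genes (20 on each side, fewer near chromosome ends) had a median of -0.43, and 33 of the 40 were called lower. The same median was -0.35 around PSMA3 (28 of 40 lower), -0.35 around PSMA6 (24 of 40 lower) and -0.36 around PSMC1 (25 of 40 lower). The fifth subunit on chromosome 14, PSMB5 (start 23016543, GENCODE 29, GRCh38), was not called, and its neighbours had a median of -0.058. At the other end, the neighbours of PSMD2 on chromosome 3 had a median of 0.45 (30 of 40 called higher, 0 lower) and those of PSMD12 on chromosome 17 had a median of 0.23 (19 higher, 5 lower). For PSMA1 and PSMB2 the neighbours were near 0 (0.097 and -0.030).

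Set against their neighbours, 29 of 34 subunits were above the neighbours' median, where 49.9% of 13648 genes were, with a median difference of 0.15. The difference was 0.39 for PSMD2, 0.29 for PSMD12 and 0.36 for PSMA1, against 0.035 for PSMA3, 0.045 for PSMA6, 0.054 for PSMC6 and 0.21 for PSMC1, so 3 of the 4 subunits called lower stood close to their neighbours. As a description across the 34 genes, which share libraries, the correlation of a subunit's change with its neighbours' median was 0.823 (Pearson) and 0.377 (Spearman); this comparison was added after the values had been seen. What moves the neighbours was not tested.

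**Figure D3:**
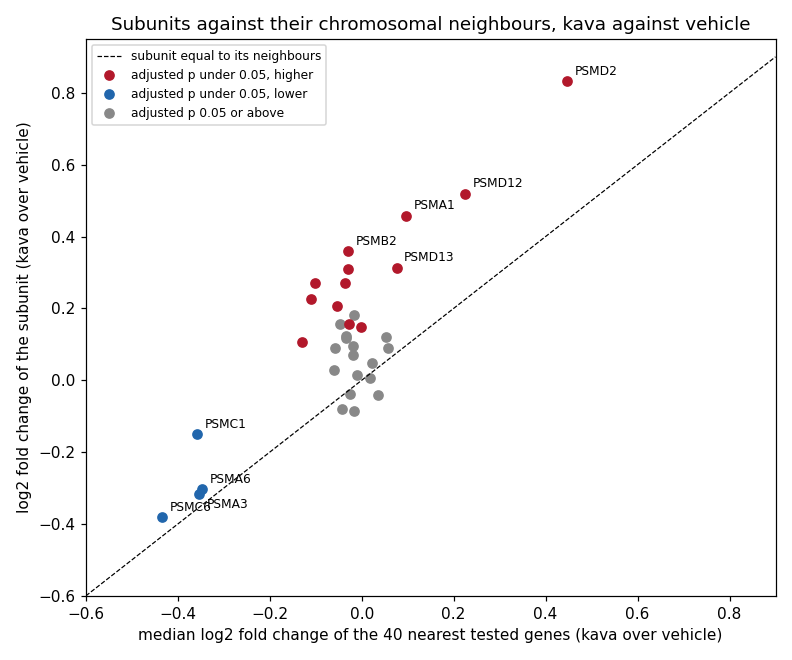
Each point is 1 subunit: its log2 fold change (kava over vehicle) against the median of its 40 nearest tested genes, with the dashed line marking equality. The 4 subunits called lower lie at neighbour medians of -0.43 to -0.35, and PSMD2 lies at 0.45.

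Added up, the 34 subunits reached 9240, 9076 and 8748 TPM in kava libraries, against 8076, 8266 and 8140 TPM in vehicle libraries, 1.105 times as much by the ratio of means, and the groups did not overlap. Without PSMD2 the ratio was 1.07. The non-ATPases summed to 2694 ± 45.6 TPM with kava and 2149 ± 19.3 TPM with vehicle (SD, n = 3 each), a ratio of 1.25. PSMD2 alone held 718 TPM of that sum with kava and 402 TPM with vehicle (group means), so much of the difference lay in that gene. The beta subunits summed to 2427 ± 144 TPM with kava and 2154 ± 61.6 TPM with vehicle (SD, n = 3 each), a ratio of 1.13 without overlap. The alpha subunits summed to 2330 ± 106 TPM with kava and 2283 ± 36.4 TPM with vehicle (SD, n = 3 each), and the ATPases to 1571 ± 45.0 TPM with kava and 1574 ± 6.02 TPM with vehicle (SD, n = 3 each). The libraries overlapped in both of those sums, and the sign of each turned when kava replicate 1 was left out (log2 ratios of -1.312e-06 for alpha subunits and 0.012 for ATPases, the second also turning without kava replicate 2, at 0.0044). A TPM is a share of the library, and in bulk RNA fewer cells of a type and less RNA per cell cannot be told apart.

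**Figure D4:**
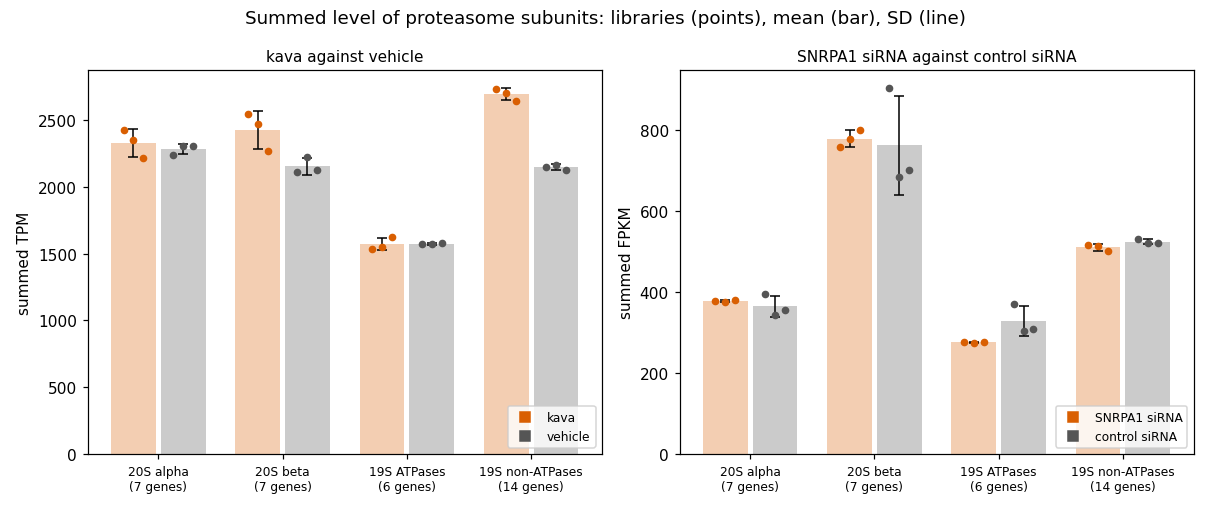
Summed level of the subunits of each part of the particle in each library (points), with group mean (bar) and SD (line), in TPM (left, kava and vehicle) and FPKM (right, SNRPA1 siRNA and control siRNA), n = 3 each. The non-ATPase sum, which includes PSMD2, is 1.25 times as high with kava. Control siRNA replicate 1 is the highest library in each sum on the right.

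The genes that control, assemble or feed the proteasome were read from 8 lists of 50 genes, of which 48 could be tested. With kava, 17 were called higher (35.4%) and 6 lower (12.5%), beside 16.3% and 15.6% of all genes. The segregase VCP (p97), which pulls ubiquitinated proteins out of complexes and membranes, and its 4 cofactors were all called higher. NPLOC4 had 124, 123 and 120.2 TPM in kava libraries, against 76.8, 73.1 and 75.3 TPM in vehicle libraries (log2 fold change 0.70 ± 0.036 (SE), adjusted p = 1.99e-05, limma). UFD1, its partner in handing substrates to p97, had 173, 184 and 177 TPM in kava libraries, against 113, 115.5 and 114 TPM in vehicle libraries (log2 fold change 0.64 ± 0.037 (SE), adjusted p = 3.05e-05, limma). VCP itself had 366, 362 and 352 TPM in kava libraries, against 303, 293 and 284 TPM in vehicle libraries (log2 fold change 0.30 ± 0.036 (SE), adjusted p = 0.000983, limma). FAF2, a membrane-bound adaptor of p97, had 50.4, 52.6 and 54.7 TPM in kava libraries, against 40.3, 41.5 and 39.75 TPM in vehicle libraries (log2 fold change 0.37 ± 0.044 (SE), adjusted p = 0.000922, limma), and NSFL1C changed by 0.25 (adjusted p = 0.00472, limma). The neighbours of NPLOC4, UFD1 and FAF2 were also higher (medians 0.37, 0.33 and 0.25), and those of VCP and NSFL1C were not (-0.031 and -0.11).

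The list for NFE2L1 control had 4 of 10 genes called higher and 0 lower in limma, beside 16.3% and 15.6% of all genes. At an unadjusted p under 0.05 it had 5 higher and 0 lower, beside 2903 and 3036 of the 13866 genes. NFE2L1 itself had 215, 239.8 and 268 TPM in kava libraries, against 185, 181 and 199 TPM in vehicle libraries (log2 fold change 0.35 ± 0.078 (SE), adjusted p = 0.0132, limma). Its 3 small MAF partners were each called higher. MAFG had 31.2, 31.9 and 32.1 TPM in kava libraries, against 20.3, 19.7 and 20.35 TPM in vehicle libraries (log2 fold change 0.63 ± 0.042 (SE), adjusted p = 5.7e-05, limma). MAFF had 21.3, 19.9 and 20.0 TPM with kava and 14.45, 14.4 and 13.2 TPM with vehicle (log2 fold change 0.51 ± 0.057 (SE), adjusted p = 0.000602, limma). MAFK had 16.3, 16.8 and 15.5 TPM with kava and 11.65, 11.2 and 11.2 TPM with vehicle (log2 fold change 0.48 ± 0.053 (SE), adjusted p = 0.000591, limma). The libraries of the 2 groups did not overlap in any of these 4 genes. Their chromosomal neighbours were not compared, so whether nearby genes rose with them was not tested. The related factor NFE2L2 was not called (-0.073, adjusted p = 0.165, limma), nor were DDI2 and NGLY1, the protease and the glycanase that activate NFE2L1 (-0.092 and -0.0061). Transcript level says nothing about that activation, which acts on the protein.

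PSMG2, an assembly chaperone of the alpha ring, had 69.75, 63.9 and 62.6 TPM in kava libraries, against 104, 106 and 106 TPM in vehicle libraries and was the largest fall of the 48 (log2 fold change -0.68 ± 0.048 (SE), adjusted p = 7.46e-05, limma); it lies on chromosome 18, where its neighbours had a median of -0.36. USP14, a deubiquitinase bound to PSMD2, had 71.9, 74.2 and 74.8 TPM in kava libraries, against 91.4, 89.0 and 91.2 TPM in vehicle libraries (log2 fold change -0.29 ± 0.036 (SE), adjusted p = 0.000927, limma) and lies on the same chromosome, with a neighbour median of -0.39. Of the inducible catalytic subunits, which replace PSMB6, PSMB7 and PSMB5 in the immunoproteasome, PSMB9 (0.51) and PSMB8 (0.29) were called higher and PSMB10 (-0.044) was not. Their sum was 18.95% ± 0.52 of the summed constitutive sites with kava and 17.55% ± 0.26 with vehicle (SD, n = 3 each), so the constitutive forms made up most of the catalytic message in both groups. PSMB11 was near 0 and PSMA8 was listed at 0 in all 6 libraries.

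Other related genes called with kava were ADRM1 (0.24), POMP (0.13), TXNL1 (0.12) and PSME1 (0.10), higher, and PAAF1 (-0.24), UBQLN4 (-0.23), RPS27A (-0.21) and PSME3 (-0.16), lower. They include a ubiquitin receptor (ADRM1), the maturation factor of the core particle (POMP) and activators that open the gate (PSME1 and PSME3). Leaving out any 1 of the 6 libraries ended the call of PSME1 (adjusted p of 0.0626 to 0.128, limma), and TXNL1 lost its call without any library other than vehicle replicate 3 (0.0743 to 0.145). POMP lost its call without kava replicate 1 (0.0581) or 2 (0.0833) or vehicle replicate 1 (0.0937) or 2 (0.0822). PSME3 lost it without kava replicate 1 (0.0676) or 2 (0.0835) or vehicle replicate 1 (0.0942) or 3 (0.0779), and ADRM1 without kava replicate 2 (0.0691) or vehicle replicate 1 (0.0762) or 3 (0.0822). RPS27A lost it without vehicle replicate 3 (0.0569). Without the filter on low TPM all 6 of these calls were lost (0.0576 to 0.0732), and eBayes without a trend ended those of PSME1 (0.107), PSME3 (0.0615), POMP (0.0682) and TXNL1 (0.0939).

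The knockdown was checked first on its target. SNRPA1 had 21.4, 21.0 and 23.75 CPM in SNRPA1 siRNA libraries, against 67.6, 58.9 and 60.2 CPM in control siRNA libraries, 0.354 of control, without overlap (log2 fold change -1.50 ± 0.098 (SE), adjusted p = 0.00495, edgeR). Its adjusted p was 0.0501 to 0.0558 in edgeR when an SNRPA1 siRNA library was left out, and its log2 fold change was then between -1.56 and -1.46. With kava, SNRPA1 was also lower, with 124, 127 and 130.1 TPM in kava libraries, against 153, 152 and 147 TPM in vehicle libraries (log2 fold change -0.24 ± 0.036 (SE), adjusted p = 0.00227, limma). The knockdown itself is compared below in CPM (counts scaled to library size), which do not scale for gene length, so levels are set against each other only within a gene.

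After SNRPA1 siRNA, 3 of 34 subunits were called higher and 1 lower than with control siRNA in edgeR, beside 4.89% (673) and 7.29% (1004) of 13772 genes. The other 30 subunits did not pass. Scaled by library totals in place of TMM, 386 genes were called higher and 1390 lower, with 0 subunits higher (6 at an unadjusted p under 0.05, edgeR) and 3 lower. The median log2 fold change of the subunits was 0.083, against -0.0032 for all genes, and 10 subunits lay wholly above control and 5 wholly below, where 18.3% and 20.4% of all genes did. The 3 called higher are non-ATPases. PSMD10, an assembly factor of the ATPase ring also known as gankyrin, had 61.9, 61.9 and 59.8 CPM in SNRPA1 siRNA libraries, against 41.8, 47.2 and 50.8 CPM in control siRNA libraries (log2 fold change 0.39 ± 0.093 (SE), adjusted p = 0.0396, edgeR). PSMD12 had 135, 126 and 123 CPM in SNRPA1 siRNA libraries, against 97.7, 108.5 and 105 CPM in control siRNA libraries (log2 fold change 0.30 ± 0.078 (SE), adjusted p = 0.0486, edgeR). PSMD14 had 153, 147 and 146 CPM in SNRPA1 siRNA libraries, against 121, 125 and 124 CPM in control siRNA libraries (log2 fold change 0.27 ± 0.067 (SE), adjusted p = 0.0443, edgeR). PSMC5, an ATPase, was the one called lower, with 240.1, 238 and 238 CPM in SNRPA1 siRNA libraries, against 381, 293 and 302 CPM in control siRNA libraries (log2 fold change -0.45 ± 0.11 (SE), adjusted p = 0.0423, edgeR). In these 4 genes the groups did not overlap, and for PSMC5 the SNRPA1 siRNA libraries lay close together while control siRNA replicate 1 was far above the other 2 control libraries.

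The catalytic subunits did not pass the test after SNRPA1 siRNA. PSMB5 had 279, 294.5 and 294.5 CPM in SNRPA1 siRNA libraries, against 325, 247 and 245 CPM in control siRNA libraries (log2 fold change 0.087 ± 0.12 (SE), adjusted p = 0.665, edgeR). PSMB6 had 138, 155 and 163 CPM in SNRPA1 siRNA libraries, against 177, 113 and 123 CPM in control siRNA libraries (log2 fold change 0.15 ± 0.17 (SE), adjusted p = 0.609, edgeR). PSMB7 had 177, 179.7 and 189.7 CPM in SNRPA1 siRNA libraries, against 209, 164 and 179 CPM in control siRNA libraries (log2 fold change -0.015 ± 0.10 (SE), adjusted p = 0.939, edgeR). In each of the 3, control siRNA replicate 1 was higher than every SNRPA1 siRNA library and at least one other control library was lower than every one of them.

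Without control siRNA replicate 1, the library that stood apart, 15 subunits were called higher (log2 fold changes of 0.15 to 0.49) and 6 lower (-0.41 to -0.18) in edgeR, where 16.2% of 13729 genes were called higher and 16.9% lower. The beta subunits then included 6 of 7 called higher: PSMB1 (0.33), PSMB2 (0.30), PSMB3 (0.39), PSMB4 (0.18), PSMB5 (0.23) and PSMB6 (0.37); PSMB4 had been at -0.026 with all 6 libraries. Of the alpha subunits, PSMA2 (0.39), PSMA6 (0.49) and PSMA7 (0.30) were called higher and PSMA5 (-0.23) lower. The ATPases split again, with PSMC1 (0.35) and PSMC4 (0.15) called higher and PSMC5 (-0.32) and PSMC6 (-0.24) lower. Among non-ATPases PSMD7 (0.22), PSMD10 (0.32), PSMD12 (0.26) and PSMD14 (0.26) were called higher and PSMD1 (-0.18), PSMD5 (-0.41) and PSMD13 (-0.27) lower. PSMD10, PSMD12, PSMD14 and PSMC5 kept their direction and their call here, but leaving out any SNRPA1 siRNA library or control siRNA replicate 3 ended all 4 calls, with adjusted p of 0.0835 to 0.171 in edgeR. Leaving out control siRNA replicate 2 ended the 3 higher calls (adjusted p of 0.0678 to 0.078, edgeR). Over all genes, edgeR called 0 without any 1 SNRPA1 siRNA library (1181 to 1349 higher and 1708 to 1918 lower, unadjusted p under 0.05). Without control siRNA replicate 3 it called 6 genes higher and 9 lower, and without control siRNA replicate 2 it called 376 and 684. Epithelial markers summed to 2240 to 2500 CPM in SNRPA1 siRNA libraries and 1830 to 2460 CPM in control siRNA libraries, a sum not scaled for gene length. Control siRNA replicate 1 was the highest of its group. Of the single markers, KRT17 (0.80, adjusted p = 0.0319, edgeR) and COL1A1 (0.38, adjusted p = 0.0464, edgeR) were called higher. CD68 (-0.88, adjusted p = 0.0142, edgeR) and NEAT1 (-0.46, adjusted p = 0.0358, edgeR) were called lower. The part of these markers in the subunit calls was not tested.

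**Figure D5:**
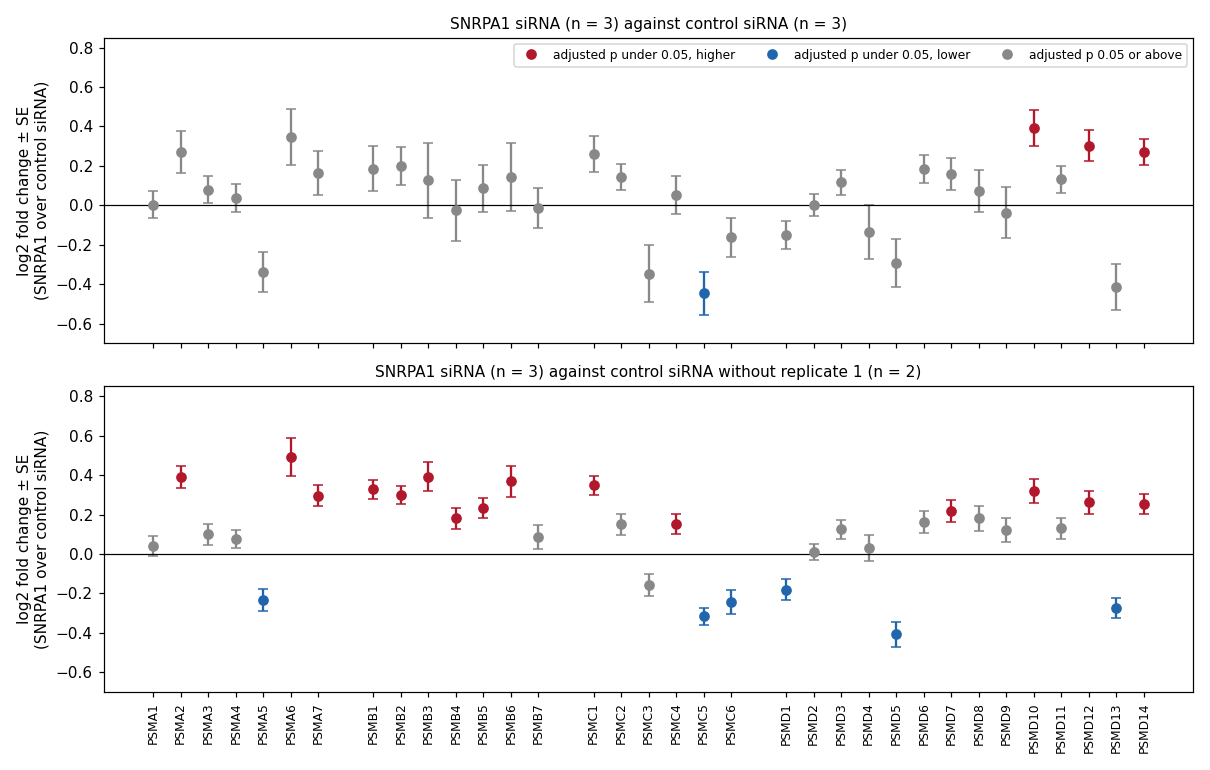
Log2 fold change with its SE of each subunit, SNRPA1 siRNA over control siRNA, with all 6 libraries (top) and without control siRNA replicate 1 (bottom). The top panel has 3 subunits called higher and 1 lower, and the bottom panel has 15 higher and 6 lower.

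The summed FPKM of the 34 subunits, a length-scaled unit, was 1930, 1942 and 1958 with SNRPA1 siRNA and 2199, 1852 and 1884 with control siRNA, so control siRNA replicate 1 alone lay above every knockdown library and the other 2 below. The log2 ratio of these sums was -0.021, and 0.057 without that library. FPKM were used as deposited, without the TMM scaling of the CPM values, so the sums and the per-gene changes differ in scale. PSMD2, for example, was at 7.605e-05 in edgeR with TMM and at -0.059 in limma on log2(FPKM + 1). The ATPases summed to 275.5 ± 0.462 FPKM with SNRPA1 siRNA and 327 ± 36.9 FPKM with control siRNA (SD, n = 3 each), below control in every library (ratio 0.841). The log2 ratio of the ATPase sums was -0.24, and -0.15 without control siRNA replicate 1. Its members differed: PSMC3 (109.0 against 143.9 FPKM, group means) and PSMC5 (49.4 against 69.9) lay wholly below control. PSMC1 (31.6 against 27.4) and PSMC2 (16.5 against 15.6) lay wholly above it, and PSMC4 and PSMC6 overlapped. The non-ATPase sum lay below control in every library, at 510.5 ± 8.56 against 524.2 ± 6.28 FPKM (SD, n = 3 each, ratio 0.974). Its log2 ratio of -0.038 was smaller in size than the gap between scales given for PSMD2. In edgeR with TMM, 9 of the 14 non-ATPases had positive log2 fold changes and 5 negative ones (median 0.094), with 3 called higher and 0 lower. PSMB8, PSMB9 and PSMB10 summed to 10.43% ± 0.54 of the constitutive catalytic subunits with SNRPA1 siRNA and 14.19% ± 1.02 with control siRNA (SD, n = 3 each), without overlap. Singly, PSMB8 (-0.42), PSMB9 (-0.25) and PSMB10 (-0.39) were not called (adjusted p = 0.0928, 0.424 and 0.283, edgeR). The CPM of PSMB9 and PSMB10 overlapped control.

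Of the 48 related genes, 5 were called higher (10.4%) and 4 lower (8.33%) after SNRPA1 siRNA in edgeR, beside 4.89% and 7.29% of all genes, so the share lower was near that of all genes. The assembly chaperone PSMG4 had 7.47, 7.26 and 7.8 CPM in SNRPA1 siRNA libraries, against 19.4, 13.7 and 15.4 CPM in control siRNA libraries and fell the most (log2 fold change -1.10 ± 0.15 (SE), adjusted p = 0.0111, edgeR). PAAF1, a chaperone of the ATPases, had 12.3, 12.8 and 13.7 CPM in SNRPA1 siRNA libraries, against 22.3, 18.8 and 20.2 CPM in control siRNA libraries (log2 fold change -0.67 ± 0.11 (SE), adjusted p = 0.0166, edgeR). ECPAS, a scaffold bound to the particle, had 116, 105.5 and 105 CPM in SNRPA1 siRNA libraries, against 130.1, 144 and 139.9 CPM in control siRNA libraries (log2 fold change -0.34 ± 0.08 (SE), adjusted p = 0.0369, edgeR), and VCP had 515, 509 and 493 CPM in SNRPA1 siRNA libraries, against 571, 619.8 and 613 CPM in control siRNA libraries (log2 fold change -0.25 ± 0.065 (SE), adjusted p = 0.0492, edgeR). The groups were separate in each of these 4. Among genes called higher, TXNL1, a thioredoxin bound to the 19S particle, had 99.5, 99.4 and 99.6 CPM in SNRPA1 siRNA libraries, against 75.0, 75.7 and 71.9 CPM in control siRNA libraries (log2 fold change 0.42 ± 0.068 (SE), adjusted p = 0.016, edgeR). AKIRIN2, which carries proteasomes into the nucleus, had 59.2, 59.99 and 61.55 CPM in SNRPA1 siRNA libraries, against 45.2, 45.3 and 45.3 CPM in control siRNA libraries (log2 fold change 0.41 ± 0.071 (SE), adjusted p = 0.0186, edgeR). In both, every SNRPA1 siRNA library lay above every control library. NFE2L2, a stress-response factor related to NFE2L1, had 136.5, 126 and 121 CPM in SNRPA1 siRNA libraries, against 76.8, 96.5 and 99.4 CPM in control siRNA libraries (log2 fold change 0.49 ± 0.11 (SE), adjusted p = 0.0369, edgeR). KEAP1, which targets NFE2L2 for degradation, had 154, 157 and 155 CPM in SNRPA1 siRNA libraries, against 122, 129 and 127 CPM in control siRNA libraries (log2 fold change 0.31 ± 0.067 (SE), adjusted p = 0.0319, edgeR). FAF2 had 131, 118 and 123 CPM in SNRPA1 siRNA libraries, against 82.8, 98.15 and 92.5 CPM in control siRNA libraries (log2 fold change 0.44 ± 0.09 (SE), adjusted p = 0.0273, edgeR). These 3 also separated the groups, with control siRNA replicate 1 the lowest library in each. NFE2L1 had 398, 383 and 400.0 CPM in SNRPA1 siRNA libraries, against 304, 356 and 351.5 CPM in control siRNA libraries, wholly above control but not called (log2 fold change 0.22 ± 0.081 (SE), adjusted p = 0.115, edgeR). All 9 calls were lost when any 1 SNRPA1 siRNA library was left out (adjusted p of 0.0695 to 0.183, edgeR) or control siRNA replicate 3 (0.0562 to 0.163). Of all genes, the fits without an SNRPA1 siRNA library called 0, and the fit without control siRNA replicate 3 called 6 higher and 9 lower. Without control siRNA replicate 2 those of ECPAS (0.0786), NFE2L2 (0.0541), KEAP1 (0.0593) and VCP (0.107) were lost. Without control siRNA replicate 1 NFE2L1 was called higher (0.15, adjusted p = 0.035).

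The kava and siRNA tables share no library, so the subunits' values can be set side by side. PSMD12 and PSMD14 were called higher in both comparisons, at 0.52 and 0.21 with kava and at 0.30 and 0.27 with SNRPA1 siRNA. With SNRPA1 siRNA each of these 2 calls held in only 3 of 12 alternatives. PSMC5 was called in opposite directions (0.11 with kava, -0.45 with SNRPA1 siRNA), calls that held in 5 of 13 and 5 of 12 alternatives. PSMD2, the largest change with kava, was at 7.605e-05 with SNRPA1 siRNA, with 905, 908 and 881 CPM in SNRPA1 siRNA libraries and 912, 901 and 881 CPM in control siRNA libraries. The 4 subunits called lower with kava were not called with SNRPA1 siRNA, at 0.079 for PSMA3, 0.35 for PSMA6, 0.26 for PSMC1 and -0.16 for PSMC6, and the median of chromosome 14 in that table was -0.020. Across the 34 subunits the change after SNRPA1 siRNA had a Spearman correlation of -0.393 with the number of exons (-0.155 over 12074 genes). It was 0.274 with the median intron length (0.251 over 11823 genes) and -0.214 with GC percent (-0.321 over 12074 genes). With transcript length it was -0.144 (0.0917 over all genes) and with gene span 0.0628 (0.11 over all genes). These are descriptions over genes that share libraries, and their causes were not tested.

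Strandedness is not given in the sources used here, so reads of a subunit and of a gene on the other strand cannot be told apart where they overlap in GENCODE 29, as for PSMA3 with ARMH4 and PSMA3-AS1, PSMC1 with NRDE2, PSMC5 with FTSJ3 and PSMD13 with SIRT3. On their own strand, for example, PSMA6 overlaps AL121594.1, PSMA1 overlaps AC018523.2 and PSMD14 overlaps RNA5SP108. Pseudogenes under the subunit's name include 13 for PSMC1, 4 for PSMA6, 3 for PSMD10 and 1 each for PSMD12, PSMB7 and PSMD4. The values of such subunits, called higher or lower, are less certain than those of subunits without overlaps or pseudogenes, such as PSMD2, PSMC6 and PSMB2.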

How the data were processed

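RNA of BEAS-2B cells was enriched for polyadenylated molecules on oligo(dT) beads, per the labels' protocols, and measured in 12 libraries. The kava and vehicle values are TPM as deposited by the authors; each column sums to 1000000, so depth is unknown. The siRNA table holds raw counts and FPKM as deposited by the authors. Tools listed in the submitters' processing notes, without roles, are HISAT2 2.0.4, cutadapt 1.9, DESeq2 and StringTie 1.3.4d, with build hg38; the TPM table's name points to salmon.

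For kava over vehicle, limma 3.58.1 (trend) was run on log2(TPM + 1) where the mean reached 1 TPM; fold changes on that scale understate those of low genes. For the siRNA libraries, edgeR 4.0.16 (quasi-likelihood, TMM; R 4.3.3) was run on counts where the mean reached 1 CPM. Benjamini-Hochberg adjustment ran over all genes tested, and calls were made at an adjusted p under 0.05. Both procedures were also run on simulated data. The simulated counts had the same dispersion in every gene and no library that stood apart. That run therefore does not cover a case such as control siRNA replicate 1. Samples were grouped by their labels, and no sample was left out. Members and lists were chosen with earlier results of these data known. Given in full were up to 12 called subunits per comparison by adjusted p, PSMB5, PSMB6, PSMB7, SNRPA1, NFE2L1 and up to 10 called related genes per comparison; other genes named singly were chosen after their values were seen. Some related genes that the rule names are not reported here. Alternatives covered the pseudocount, filter, scaling, tool, replicate block and each library left out.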

Additional observations from a re-analysis of the deposited data

How the results depend on the processing

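With kava, 12 of the 17 subunit calls held under all 13 alternatives; the subunits called higher numbered 9 to 17 with 1 library left out and 9 to 13 under the other settings, and those called lower 3 to 4. All genes called lower numbered 1400 to 2099 with 1 library left out. Uncalled subunits changed sign with 1 library left out: PSMA4 (-0.012 to 0.037), PSMA7 (-0.000202 to 0.11), PSMD6 (-0.014 to 0.026) and PSMD7 (-0.0061 to 0.052), as did the summed log2 ratios of alpha subunits (-1.312e-06 to 0.065) and ATPases (-0.027 to 0.012).

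The SNRPA1 siRNA counts depended on the setting. RLE size factors left 0 subunits called lower (4 at an unadjusted p under 0.05 in edgeR). Library totals gave 386 genes higher, 0 subunits higher (6 unadjusted, edgeR) and 3 lower, and 2 related genes higher and 7 lower; PSMA1 was then at -0.052, PSMA4 at -0.018, PSMC4 at -0.000751 and PSMD2 at -0.056. Without the filter, 258 genes were higher and 411 lower, with 0 subunits in either direction (7 and 4 unadjusted, edgeR) and 2 related genes in each. DESeq2 called 1427 higher and 1768 lower, 3 subunits lower and 7 related genes lower. In limma on log2(FPKM + 1), 394 genes were higher, 0 subunits higher (6 unadjusted) and 3 lower, and 2 related genes higher and 9 lower; PSMA1 was at -0.055, PSMA4 at -0.021, PSMC4 at -0.0015 and PSMD2 at -0.059. The cause was not tested.

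With 1 library left out, 0 to 2222 genes were called higher and 0 to 2324 lower, subunits 0 to 15 higher and 0 to 6 lower, and related genes 0 to 14 higher and 0 to 9 lower (edgeR; without 1 SNRPA1 siRNA library, 1181 to 1349 genes were higher and 1708 to 1918 lower at an unadjusted p under 0.05, where DESeq2 was run with all 6 libraries only). SNRPA1 ranged over -1.56 to -1.44. Sign changes came in PSMA1 (-0.018 to 0.040), PSMB3 (-0.0097 to 0.39), PSMB4 (-0.12 to 0.18), PSMB7 (-0.090 to 0.086), PSMD2 (-0.011 to 0.015), PSMD4 (-0.23 to 0.031), PSMD8 (-0.015 to 0.18) and PSMD9 (-0.12 to 0.12), and in the summed log2 ratios of all 34 subunits (-0.067 to 0.057) and of beta subunits (-0.031 to 0.17).

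Deviations of same-numbered libraries from their group means correlated at -0.016, -0.11 and 0.093 for kava and vehicle. They correlated at -0.38, 0.00089 and -0.19 for SNRPA1 siRNA and control siRNA. Deviations from the mean of 3 libraries are bound to each other, so these values cannot show whether same-numbered libraries were prepared together. With the replicate block, limma called 2072 genes higher and 1882 lower with kava, 12 subunits higher and 3 lower, and 15 related genes higher and 6 lower; it ended the calls of PSMC1 (adjusted p = 0.0613), PSMC5 (0.0705), PSME1 (0.0751), POMP (0.058) and TXNL1 (0.0688). With the same block, edgeR called 0 genes higher and 0 lower after SNRPA1 siRNA (1207 and 1712 unadjusted), with 0 subunits and 0 related genes (3 and 3, and 6 and 6, unadjusted), and SNRPA1 was at -1.50 (adjusted p = 0.118). Depth is unknown for the TPM values, so no counting interval is given.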
